A study of Mus musculus with 4 samples.

Results

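The Hox genes are the homeobox transcription factors that lie in 4 clusters, Hoxa, Hoxb, Hoxc and Hoxd. Their members were taken by symbol, as every gene called Hox, then a cluster letter from a to d, then a number, which gave 39 of the 22609 genes counted. RNA was sequenced from mammospheres, clusters of mammary cells that grow in suspension, cultured for 7 days from sorted basal cells of Balb/C mice aged 4 months. All mice were dosed by gavage for 3 weeks from day 21 of age and all were kept on a diet low in plant estrogens. The control library came from mice given sesame oil. The BPA library came from mice given bisphenol A (BPA, an estrogen-like building block of plastics) at a dose of 25 µg/kg/day. The DMBA library came from oil-dosed mice that received 30 mg/kg of 7,12-dimethylbenz[a]anthracene (DMBA, a carcinogenic hydrocarbon) by gavage at 2 months. The BPA+DMBA library came from mice that received both. Each condition was 1 library made from the pooled spheres of 5 animals, so spread between animals was not measured.

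Hox proteins bind DNA, mostly together with partner homeodomain proteins of the Pbx and Meis families, and give cells their identity along the body axis. The genes of a cluster stand in a fixed order: low-numbered genes are active in anterior parts of the embryo and high-numbered genes in posterior parts. Genes with the same number in different clusters are paralogs and share much of their function. Polycomb complexes keep Hox genes off and trithorax (MLL) complexes keep them on, and retinoic acid activates the low-numbered genes. In the mouse mammary gland Hoxc6 and Hoxc8 are known from gland formation, and the paralogs Hoxa9, Hoxb9 and Hoxd9 from its growth in pregnancy.

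Gene counts summed to between 15672532 (BPA+DMBA) and 30627055 (control), so the BPA+DMBA library was the shallowest, and a gene at 0 could still have held up to 3 counts, between 0.0980 CPM in control and 0.191 CPM in BPA+DMBA. CPM are counts divided by the scaled library size. Of 14 markers of basal cells, all were measured, and their summed level was 1964 CPM (control), 2037 (BPA), 4019 (DMBA) and 3652 (BPA+DMBA). The spheres also held RNA of luminal markers, at 2936 to 3882 CPM in sum, and of 12 fibroblast markers, none of them at 0, at 6159 to 10044 CPM in sum. Of 7 immune markers 3 reached 20 counts in a library: Cd68 at 21.2 to 26.8 CPM, Csf1r at 0.646 to 1.52, and Lyz2. Lyz2 stood at 0.270 CPM (control), 0.366 (BPA), 1.11 (DMBA) and 2.77 (BPA+DMBA) and rose with DMBA in the additive test described below. It had 8, 7, 31 and 44 counts in these libraries, so it was tested only because of the libraries with DMBA. Ptprc stood at 0.0523 to 0.126 CPM, near the floor. In such pooled RNA, fewer cells of a type and less RNA per cell cannot be told apart. In both comparisons of DMBA, the ratio fell with gene length across genes (Spearman's rho of −0.304 without BPA and −0.350 with it, 13509 genes, as a description).

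RefSeq promoter windows (GRCm38.p6) matched 22 of the 39 Hox genes, with 24 windows. The stretches below are the 250 bases before the start of 3 genes at opposite ends of the measured range: Hoxb4, which was among the most abundant, and Hoxd1 and Hoxa13, which had no count in any library. They lie at chr11:96318017-96318266 on the plus strand (Hoxb4), chr2:74762730-74762979 on the plus strand (Hoxd1) and chr6:52260881-52261130 on the minus strand (Hoxa13). Each is written 5′ to 3′ with CG dinucleotides, the sites of DNA methylation and the mark of CpG islands, in capitals.
Hoxb4: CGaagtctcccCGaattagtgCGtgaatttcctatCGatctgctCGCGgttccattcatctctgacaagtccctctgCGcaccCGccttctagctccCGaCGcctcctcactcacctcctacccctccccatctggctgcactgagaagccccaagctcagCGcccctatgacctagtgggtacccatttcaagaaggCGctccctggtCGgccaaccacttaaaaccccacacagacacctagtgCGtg
Hoxd1: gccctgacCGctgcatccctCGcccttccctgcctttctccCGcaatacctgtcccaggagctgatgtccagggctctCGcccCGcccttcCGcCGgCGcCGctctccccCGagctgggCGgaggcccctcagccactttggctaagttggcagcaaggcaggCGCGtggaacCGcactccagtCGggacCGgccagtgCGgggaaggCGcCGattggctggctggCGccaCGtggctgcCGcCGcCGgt
Hoxa13: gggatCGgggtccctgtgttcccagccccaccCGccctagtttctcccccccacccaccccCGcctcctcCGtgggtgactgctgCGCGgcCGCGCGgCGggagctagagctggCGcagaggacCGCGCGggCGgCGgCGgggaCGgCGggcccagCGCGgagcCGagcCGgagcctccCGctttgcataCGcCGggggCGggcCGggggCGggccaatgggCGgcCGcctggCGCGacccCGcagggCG
The Hoxb4 window held 14 CG dinucleotides, that of Hoxd1 24 and that of Hoxa13 35. Windows of Hox genes with at least 20 counts in a library had a median of 10 (3 to 28, 10 windows of 9 genes). Those of genes without a count had a median of 22 (2 to 35, 6 windows of 5 genes), and these ranges overlapped. Among all 32851 RefSeq windows the median was 6. The CCAAT box, searched as CCAAT on both strands, was found in 14 of the 24 Hox windows and in 33.9% of all windows. TATAAA was found in 4 of 24 (12.4% of all windows), the E box CACGTG in 4 of 24 (6.02%) and TGATNNAT, the letters of a composite Hox and Pbx site, in 4 of 24 (7.68%). These matches describe letters in a window and no binding was measured.

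Of the 39 Hox genes, 21 had at least 20 counts in a library and entered the tests, 11 had between 1 and 19 counts in their highest library, and 7 had no count in any library. Among all genes 60.3% reached 20 counts, against 53.8% of Hox genes. The detected genes were unevenly placed. In the Hoxb cluster 7 of 10 genes reached 20 counts, in Hoxa 6 of 11, in Hoxc 6 of 9 and in Hoxd 2 of 9. By position, 4 of the 8 anterior genes (numbers 1 to 3) reached 20 counts, 13 of the 15 central genes (4 to 8) and 4 of the 16 posterior genes (9 to 13). The 7 genes without a count were Hoxa13, Hoxb13, Hoxc12, Hoxd1, Hoxd11, Hoxd12 and Hoxd13, so 6 of them were posterior.

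The most abundant members were 3 neighbours of the Hoxb cluster. Hoxb3, an anterior gene of hindbrain and neck, stood at 28.6 CPM (control), 33.8 (BPA), 34.4 (DMBA) and 33.4 (BPA+DMBA). Hoxb4, known for the expansion of blood stem cells, stood at 14.8, 13.5, 15.5 and 14.7 CPM in the same order of libraries, which is used for further series of 4 values. Hoxb2, a hindbrain gene, stood at 10.9, 12.4, 15.4 and 15.7 CPM. Hoxb4 thus moved little, while Hoxb2 was higher in both DMBA libraries than in the other two. Per kilobase of exon, the scale on which genes can be compared, Hoxb3 ranged from 8.13 to 9.78 CPM over the 4 libraries and Hoxb2 from 6.69 to 9.67, so that their ranges overlapped, and Hoxb4 lay below both at 5.25 to 6.05. By coding length alone Hoxb4 came before Hoxb2. An antisense gene, Hoxb3os, covers 58.5% of the exon bases of Hoxb2 and 63.9% of those of Hoxb3 (GENCODE M21). The library kit named in the labels does not mark strand, so reads from Hoxb3os cannot be told apart from those of these 2 genes. In all, 12 of the 39 Hox genes share exon bases with another annotated gene, and none with another Hox gene.

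The Hoxb cluster dropped off sharply on both sides of these 3 genes. On the anterior side Hoxb1, a gene of a single hindbrain segment, had no count in 3 libraries and 2 counts in BPA+DMBA. On the posterior side Hoxb4 exceeded Hoxb5 between 9.53 and 22.8 times per kilobase. Hoxb5, a gene of trunk and gut, had 22, 20, 14 and 15 counts. Hoxb6, a trunk gene, had 20, 16, 34 and 31 counts, or 0.674, 0.836, 1.22 and 1.95 CPM, higher in both DMBA libraries than in the other two. Hoxb7, which is linked to growth of human breast cancer cells, was a second, lower peak at 2.22, 2.46, 2.80 and 3.71 CPM, and exceeded Hoxb8 per kilobase in every library, by 4.49 to 9.26 times. Hoxb8, known from blood cells and microglia, had 30, 20, 27 and 13 counts, and Hoxb9 stayed at 7 to 16.

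The Hoxc cluster held the next most abundant genes, all central or at the start of the posterior group. Hoxc6 had 222, 154, 156 and 127 counts and stood between 5.60 CPM, in the DMBA library, and 8.05 CPM, in the BPA library. Hoxc10, a gene of lumbar motor neurons and hindlimb, stood at 8.43, 5.85, 5.88 and 9.88 CPM. Hoxc8 stood at 5.33, 3.66, 3.84 and 5.10 CPM. Hoxc9, a thoracic gene, stood at 1.99, 1.36, 1.65 and 2.64 CPM. Each of the last 3 was lower in the BPA and DMBA libraries than in control and BPA+DMBA, with no overlap between these pairs of libraries. Of these 3, only Hoxc10 was separated beyond counting error in every comparison between the pairs. Hoxc4, at 1.89, 2.51, 1.76 and 3.27 CPM, and Hoxc5, at 1.65, 1.67, 1.94 and 2.52 CPM, were highest in BPA+DMBA. Per kilobase Hoxc6 ranged from 3.54 to 5.09 CPM and Hoxc10 from 3.07 to 5.18, overlapping each other and below every value of Hoxb4. Hoxc8 (1.96 to 2.85) and Hoxb7 (1.72 to 2.88) followed, overlapping each other. Hoxc4 (0.685 to 1.27) lay below all of these. After Hoxc10 the cluster ended abruptly: Hoxc10 exceeded Hoxc11 by 16.9 to 34.7 times per kilobase, Hoxc11 had 5 to 9 counts, Hoxc12 none, and Hoxc13, a hair follicle gene, 1 to 4.

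The Hoxa genes were low, with none above 2.90 CPM in any library. Hoxa3, known from thymus and parathyroid formation, had 74, 34, 47 and 46 counts, or 2.49, 1.78, 1.69 and 2.90 CPM. Hoxa10, known from the uterus, had 66, 31, 48 and 41 counts, or 2.22, 1.62, 1.72 and 2.58 CPM. Both stood lower in the BPA and DMBA libraries than in the other two, though not beyond counting error in every comparison. Hoxa5, which activates p53 transcription in human breast cells, had 37, 11, 34 and 26 counts, or 1.25, 0.575, 1.22 and 1.64 CPM, lowest in BPA. Hoxa4, known from the lung, had 28, 15, 21 and 20 counts and Hoxa9 23, 15, 21 and 15. Hoxa2 (6 to 12 counts), Hoxa6 (1 to 8), Hoxa7 (12 to 18) and Hoxa11 (0 to 6) stayed below 20 counts, and Hoxa13, a gene of digits and genital tubercle, had none. In the Hoxd cluster Hoxd8 had 45, 27, 47 and 31 counts, or 1.52, 1.41, 1.69 and 1.95 CPM, and Hoxd4 had 20, 12, 14 and 10 counts. Hoxd3 (2 to 7 counts), Hoxd9 (7 to 16) and Hoxd10 (5 to 12) stayed below 20 counts. Of the exon bases of Hoxd4, 45.1% are shared with another annotated gene, Gm28230, on the same strand.

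**Figure D1:**
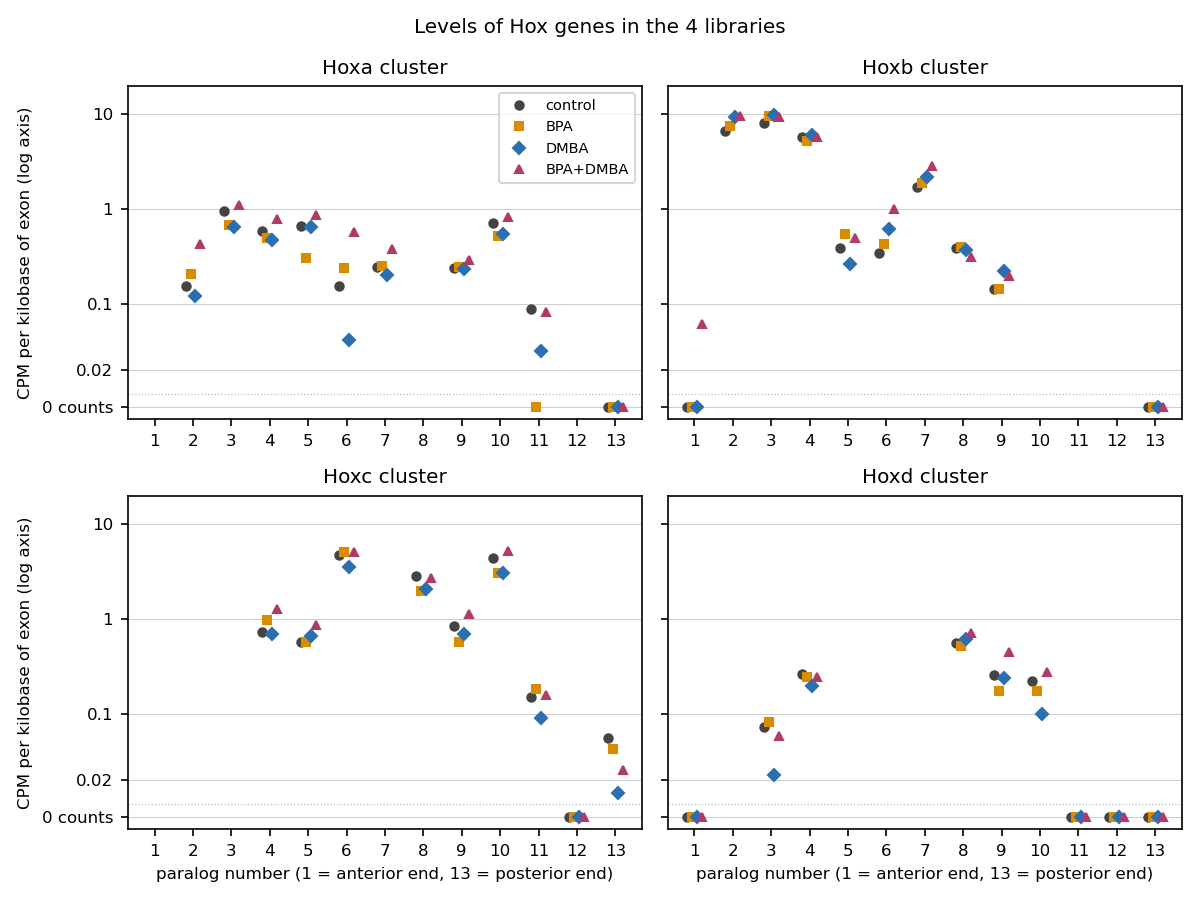
Levels of the Hox genes described here in the 4 libraries, as CPM per kilobase of exon on a log axis, against the paralog number, 1 panel per cluster. Each point is 1 library, and points on the bottom line are genes without a count. Hoxb2, Hoxb3 and Hoxb4 stand between 5.25 and 9.78, Hoxc6 and Hoxc10 between 3.07 and 5.18, and the numbers 11 to 13 are near or at 0.

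Across paralog groups the lead lay with Hoxb at the anterior end and mostly with Hoxc further on. Hoxb led per kilobase for the numbers 2, 3 and 4 in all 4 libraries, with median levels 47.8, 11.6 and 6.73 times those of the next paralog. Hoxc led for the numbers 6, 8, 9 and 10 in all 4 libraries, with ratios of 9.35, 4.10, 3.14 and 5.97. Hoxb7 led its group by 8.21. For number 5 the lead was shared, with Hoxa5 first in 2 libraries and a ratio of only 1.06. The profile over the 21 genes was much the same in each library: Pearson's r of log2 CPM between libraries ran from 0.965 to 0.979 and Spearman's rho from 0.896 to 0.951, across genes, which are not independent replicates. Against other genes the Hox genes were low. Hoxb3 had 51.2% of the measured genes below it per kilobase, Hoxb2 48.2%, Hoxb4 38.8% and Hoxc6 35.6%, and the median Hox gene had 9.76%.

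Summed over all 39 genes, the level was 99.9, 99.2, 103 and 120 CPM. The clusters did not keep their proportions. Hoxb contributed 59.4% of Hox counts to the control library (95% exact binomial interval 57.6 to 61.2) and 59.8% to BPA+DMBA (57.5 to 62.0), against 66.0% to BPA (63.8 to 68.1) and 69.4% to DMBA (67.6 to 71.0). Control and BPA+DMBA thus had overlapping intervals and both lay below BPA and DMBA. Hoxc contributed 27.2%, 23.8%, 20.3% and 26.4%, Hoxa 9.99%, 7.27%, 7.52% and 10.3%, and Hoxd 3.37%, 3.00%, 2.86% and 3.51%. By position, the posterior genes made up 15.4%, 11.2%, 11.2% and 15.4% of Hox counts and the anterior genes 43.6%, 49.5%, 51.1% and 44.7%. These intervals cover counting error only, and no replicate bears on the difference. Few genes carry these shares. Hoxb2, Hoxb3 and Hoxb4 together made up 54.4%, 60.2%, 63.5% and 53.1% of Hox counts. Hoxc10 held 250, 112, 164 and 157 of the 456, 213, 322 and 295 posterior counts. Reads from Hoxb3os cannot be told apart from those of Hoxb2 and Hoxb3, so the Hoxb and anterior values may include them.

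Relative to control, the Hoxa sum was 0.723 for BPA (95% counting interval 0.586 to 0.887), 0.777 for DMBA (0.649 to 0.929) and 1.24 for the combination (1.03 to 1.49). The Hoxc sum was 0.866 (0.770 to 0.973), 0.768 (0.689 to 0.855) and 1.17 (1.04 to 1.31). The Hoxb sum took another course, at 1.10 (1.02 to 1.19), 1.20 (1.13 to 1.28) and 1.21 (1.12 to 1.31). For Hoxd the ratios were 0.884, 0.873 and 1.25, and each interval included 1. The summed fibroblast markers moved beside Hoxa and Hoxc, at 0.746, 0.620 and 1.01 of control, with 12 of 12 detected. Most of that sum is Col1a1, Col1a2, Col3a1 and Postn. Singly, no fibroblast marker fell with DMBA in the additive test described below and 3 rose, Dcn, Fbln1 and Dpt, with Dcn at 136, 128, 175 and 217 CPM. The part of fibroblast RNA in the Hoxa and Hoxc values was not tested. The summed basal markers followed DMBA, as given above, and so did the 7 endothelial markers, none of them at 0, at 29.1, 39.4, 76.2 and 75.6 CPM in sum, of which 4 rose and none fell. Of 5 adipocyte markers only Fabp4 reached 20 counts, at 5.70, 6.37, 17.7 and 15.2 CPM, and Adipoq, Plin1, Cidec and Lep had at most 5 counts. The part of endothelial and basal RNA in the Hoxb values was not tested.

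**Figure D2:**
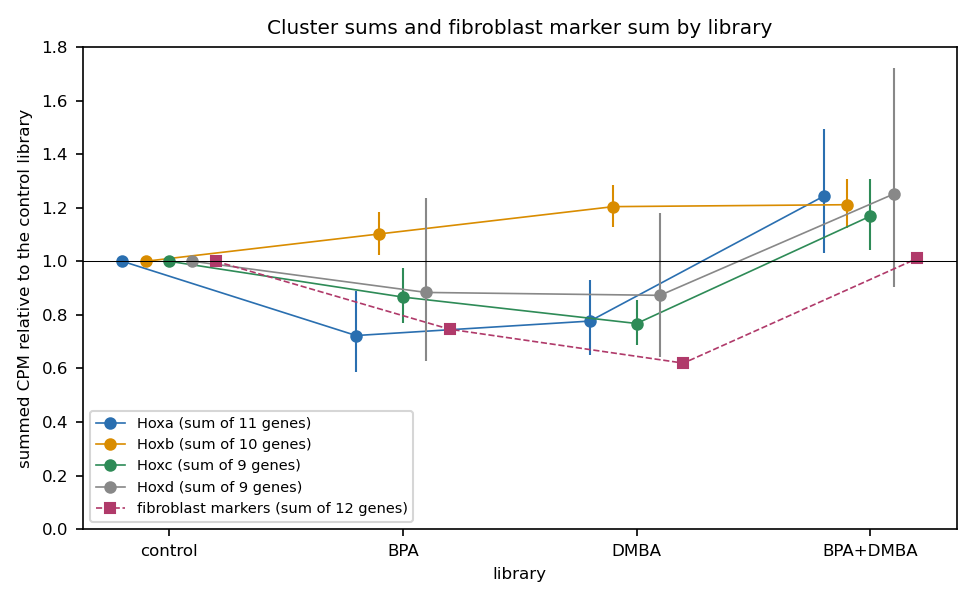
Summed CPM of each Hox cluster and of 12 fibroblast markers, divided by the control library, with 95% counting intervals as vertical bars. Lines join the libraries of a set for the eye and show no course over time. Hoxa and Hoxc lie below 1 in BPA (0.723 and 0.866) and DMBA (0.777 and 0.768) and above 1 in BPA+DMBA, Hoxb lies above 1 in all 3, and the fibroblast sum is at 0.746, 0.620 and 1.01.

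The effect of DMBA was read in 1 additive model of BPA and DMBA over the 4 libraries, in which the departure from additivity stands in for replicate spread. By edgeR's quasi-likelihood test with Benjamini-Hochberg adjustment over 13638 genes, no Hox gene of 21 passed an adjusted p of 0.05 for DMBA, while 14.4% of all genes did. At an unadjusted p under 0.05 there were 2, Hoxb2 and Hoxb6, while the share among all genes was 31.1%. The log2 change of Hoxb2 was 0.43 (SE 0.129, adjusted p = 0.0766) and that of Hoxb6 1.03 (SE 0.359, adjusted p = 0.109), by the same test. In edgeR's likelihood ratio test both passed, with adjusted p of 0.0422 and 0.0292, beside 2509 of all 13638 genes. In DESeq2's Wald test neither passed, with adjusted p of 0.543 and 0.678. With the length trend removed, the log2 changes were 0.26 and 0.89 (edgeR quasi-likelihood adjusted p of 0.267 and 0.181). In the quasi-likelihood test without that removal, the median log2 change was 0.10 over the 21 Hox genes and 0.00 over all genes. For 9 genes (Hoxa3, Hoxa10, Hoxb2, Hoxb3, Hoxb4, Hoxc4, Hoxc6, Hoxc8 and Hoxc10) the 95% interval lay within 2-fold either way. For Hoxb3 the log2 change was 0.13 (interval −0.12 to 0.38) and for Hoxb4 0.10 (−0.20 to 0.39). For the other 12 genes a change of 2-fold was not excluded, as for Hoxa5 with 0.56 (−0.51 to 1.64).

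The 2 comparisons that make up the DMBA effect share no library. In DMBA against control, no Hox gene was at least 2-fold different with a counting interval that excluded equality (6.55% of all genes were). In BPA+DMBA against BPA there were 2 such genes, both higher, Hoxa5 at a log2 ratio of 1.38 and Hoxb6 at 1.14 (2.77% of all genes were higher by this rule, 3.74% in either direction). At any fold, the counting interval excluded equality in DMBA against control for 3 higher genes, Hoxb2, Hoxb3 and Hoxb6, and for 4 lower genes, Hoxa3, Hoxc6, Hoxc8 and Hoxc10 (59.0% of all genes). In BPA+DMBA against BPA it did so for 7 higher genes and none lower (49.5% of all genes). The sign was the same in both comparisons for 9 of 21 Hox genes and for 72.8% of all genes. Hoxb2, Hoxb4, Hoxb6, Hoxb7, Hoxc5 and Hoxd8 were higher in both and Hoxb5, Hoxb8 and Hoxc6 lower in both, while no Hoxa gene had the same sign in both. The median log2 ratio of the 21 genes was −0.10 without BPA and 0.47 with it, beside −0.01 and 0.01 over all genes.

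For BPA no Hox gene passed the additive test, nor did any other gene (0.0% of 13638). At an unadjusted p under 0.05 it called no Hox gene and 2.23% of all genes, and DESeq2 called 1 gene of all at its adjusted threshold. The smallest adjusted p among the Hox genes was 0.999 (edgeR). For 12 of the 21 the 95% interval lay within 2-fold, among them Hoxb2 at a log2 change of 0.11 (−0.20 to 0.42), Hoxb3 at 0.10 (−0.16 to 0.35) and Hoxc6 at 0.30 (−0.14 to 0.74). In BPA against control, 2 Hox genes were lower by over 2-fold, among them Hoxa5 with a log2 ratio of −1.01 that rests on 11 counts in BPA (0.557% of all genes were lower by this rule, 0.829% in either direction). At any fold the interval excluded equality for 1 higher gene, Hoxb3, and 4 lower ones, among them Hoxa5, Hoxc8 and Hoxc10 (29.2% of all genes). In BPA+DMBA against DMBA no Hox gene was past 2-fold (1.09% of all genes were), and the interval excluded equality for 5 higher genes, Hoxa3, Hoxc4, Hoxc6, Hoxc9 and Hoxc10, and no lower one (32.7% of all genes). The median log2 ratio of the 21 genes was −0.09 in BPA against control and 0.40 in BPA+DMBA against DMBA. In the combined exposure against control, Hoxb6 was 2.89 times as high, from 20 and 31 counts (2.98% of all genes were higher by this rule, 4.38% in either direction), and the interval excluded equality for 5 higher genes, Hoxb2, Hoxb3, Hoxb6, Hoxb7 and Hoxc4, and no lower one (52.6% of all genes).

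**Figure D3:**
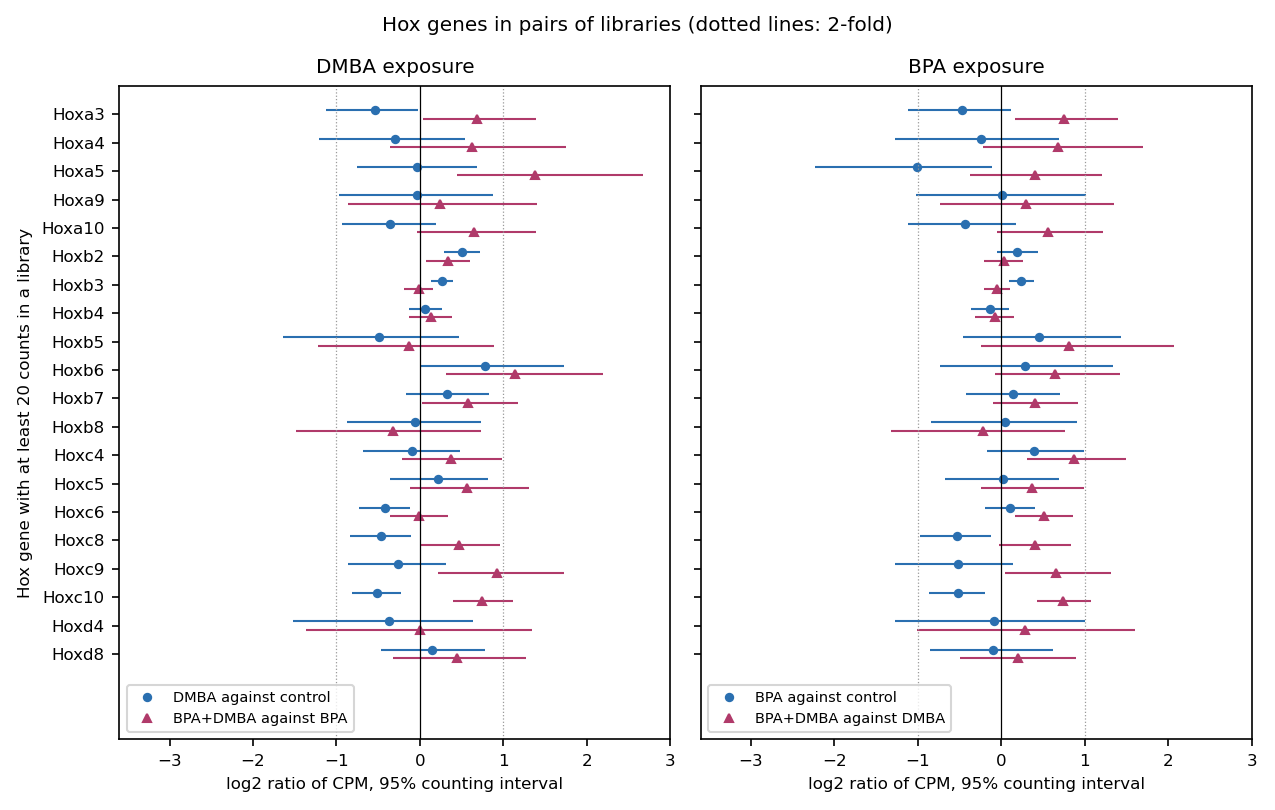
Log2 ratio of CPM for the Hox genes described here with at least 20 counts in a library, in the 2 comparisons of DMBA (left) and the 2 of BPA (right), with 95% counting intervals as bars and 2-fold marked by dotted lines. Hoxc10 stands on opposite sides of 0 in both panels, at −0.51 and 0.75 on the left, while Hoxb4 stays near 0 in all 4.

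The comparisons above differ by whether the other agent was present, and that difference was measured per gene as the log2 ratio of BPA with DMBA minus the one without. It was positive for 18 of 21 Hox genes (6547 of all 13638 genes), with a median of 0.37 beside −0.01 over all genes. Its counting interval excluded 0 for 7 of 21 Hox genes, or 33.3%, against 32.5% of all genes, so the share was near the background. By direction, 6 were above 0 (15.8% of all genes) and 1 below (16.8% of all genes). Those above were Hoxa5 at 1.41 (0.21 to 2.61), Hoxc10 at 1.26 (0.81 to 1.71), Hoxa3 at 1.22 (0.40 to 2.05), Hoxc9 at 1.18 (0.28 to 2.07), Hoxa10 at 1.00 (0.14 to 1.85) and Hoxc8 at 0.93 (0.35 to 1.51). The gene below was Hoxb3 at −0.28 (−0.50 to −0.07). Each of the 6 Hoxa and 6 Hoxc genes that reached 20 counts had a positive value, with medians of 0.96 and 0.70. The 7 Hoxb genes had a median of 0.06 and 4 positive values.

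In 8 of the 21 Hox genes the control and BPA+DMBA libraries both lay above the BPA and DMBA libraries, a pattern described after the values were seen, and in 10.7% of all genes. These were Hoxa3, Hoxa4, Hoxa5, Hoxa10, Hoxc8, Hoxc9, Hoxc10 and Hoxd4, that is 4 of 6 Hoxa, 0 of 7 Hoxb, 3 of 6 Hoxc and 1 of 2 Hoxd genes. Hoxc10 was the only one of the 8 whose counting intervals excluded equality in all 4 comparisons between these pairs of libraries, and in the other 7 at least 1 interval included equality. For Hoxa4 and Hoxd4 all 4 did, and for Hoxa10 too. Of the 12 fibroblast markers, 8 had the same pattern, among them Col1a1 at 3313, 2619, 1919 and 3484 CPM, and 10 had a departure above 0, with a median of 0.84. Of 14 basal markers 1 had the pattern and of 14 luminal markers none. Among the 23 measured genes of a list of other homeobox genes it appeared in 7, including Prrx1, Prrx2 and Alx4, which are known from mesenchyme and are named here after their values were seen. Prrx1 stood at 193, 163, 149 and 202 CPM. The part of a change in fibroblast RNA in these Hox values was not tested.

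**Figure D4:**
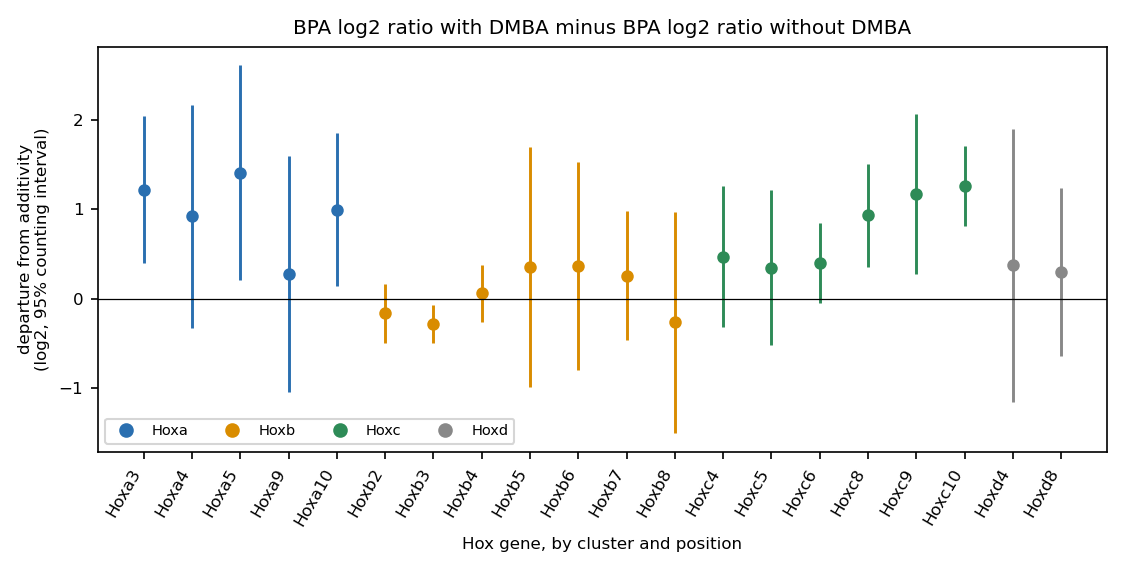
Departure from additivity (log2) of the Hox genes described here with at least 20 counts in a library, in cluster order, with 95% counting intervals as bars and colours for the clusters. The Hoxa and Hoxc points all lie above 0, with Hoxa5 at 1.41 and Hoxc10 at 1.26, and the Hoxb points lie on both sides of 0.

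Partners of the Hox proteins did not pass the test. Of the 16 measured TALE homeodomain genes, the class of the Hox partners Pbx and Meis, none passed the additive test for DMBA. Meis1 stood at 9.88, 12.1, 17.2 and 14.9 CPM, higher in both DMBA libraries, with a log2 change of 0.56 (SE 0.160, edgeR adjusted p = 0.0634). No member of any list below passed the test for BPA.

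Among all genes 6.67% rose with DMBA in the additive test and 7.72% fell. Of 32 Polycomb genes, 2 fell and none rose. Cbx7, a chromodomain subunit of the repressive complex PRC1, fell from 15.0 and 14.1 CPM to 10.1 and 9.88, a log2 change of −0.54 (SE 0.132, edgeR adjusted p = 0.0415). Phc3, another PRC1 subunit, changed by −0.38. Ezh2, the methyltransferase of PRC2, stood at 41.8, 46.5, 49.8 and 48.8 CPM (log2 change 0.16, adjusted p = 0.257 by edgeR) and Bmi1 at 50.8, 50.6, 43.9 and 41.3 CPM (log2 change −0.25, adjusted p = 0.0915). Of 21 trithorax and MLL genes, which maintain active Hox genes, 7 fell with DMBA and none rose, with a median log2 change of −0.19 over the list. Mll3 changed by −0.58 (SE 0.0798, edgeR adjusted p = 0.0103), from 134 and 128 CPM to 96.8 and 79.7. Mll1 changed by −0.49, from 255 and 260 CPM to 190 and 177. Mll5 changed by −0.46, Aff4 by −0.43, Ash1l by −0.36, and Mll2 by −0.35. The ratios fell with gene length, as given above, and with that trend removed 1 of 20 passed (Mll5) and no Polycomb gene did. With DMBA as the single term of the model on all 4 libraries, 8 trithorax and MLL genes and 3 Polycomb genes passed. In that single-term model, without the control library 4 and none passed and without the BPA library 5 and none, each with 1 library in the arm without DMBA, which is assumed to vary like the other arm.

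Of 14 measured genes for retinoic acid supply, response and reception, 4 rose with DMBA and 4 fell. The risers were Aldh1a1, Crabp1, Aldh1a3 and Crabp2, which make or bind retinoic acid, with log2 changes of 2.08, 1.21, 1.20 and 0.89. Aldh1a1 was low, at 0.843 and 1.20 CPM without DMBA and 4.95 and 3.40 with it. Rarb, a retinoic acid receptor gene that retinoic acid itself activates, fell from 43.4 and 43.6 CPM to 31.1 and 32.9, a log2 change of −0.45 (SE 0.0865, edgeR adjusted p = 0.0239). Cyp26b1, which degrades retinoic acid, changed by −0.77, Stra6, the retinol importer, by −0.83, and 1 other fell. The retinoid-responsive Hoxb4 did not pass the same test, with a log2 change of 0.10. With the length trend removed 1 of the 4 falls passed, and with total counts as scaling 1. With DMBA as the single term all 4 falls passed on 4 libraries and none without the control library. The 4 rises passed in all of these.

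Of 14 measured neighbours of the clusters, 2 passed the test for DMBA, beside 14.4% of all genes. Both rose, Ttll6 beside Hoxb at a log2 change of 2.14 and Atp5g3 beside Hoxd at 0.30, and with the length trend removed neither passed. Ttll6 had 7, 5, 34 and 15 counts, so it was tested only because of its DMBA library. Of 24 symbols listed as noncoding and antisense genes of the clusters, only 10 were among the counted genes. None of these 10 reached 20 counts in a library, while 60.3% of all genes did. Hoxb3os was not among the counted genes, so its level was not measured. Of the 23 genes of the list of other homeobox genes, Barx2 and Cux1 fell, at −0.47 and −0.35, and 1 rose. That one was Bcl11b, at 1.11 (SE 0.123, edgeR adjusted p = 0.00602), a zinc finger factor of basal mammary cells that is in the list but has no homeobox. With the length trend removed Cux1 had −0.06 and did not pass.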

How the data were processed

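Total RNA of the 4 sphere pools was sequenced after Illumina TruSeq RNA preparation, per the labels' protocols. The deposited values are whole read counts for each gene symbol and were used unchanged. CASAVA 1.8.2, HTSeq, DESeq and mm9 are named in the submitters' processing notes; the roles of these tools, the aligner, the annotation and the strand of counting were not given in the sources used here. Entries that name no gene were left out of sizes and tests: reads outside genes made up 11.3% to 13.5% of all counts, and reads aligned to more than 1 place 22.9% to 25.6%. Genes with 20 or more counts in a library (13638) were kept and scaled by TMM (factors 0.969 to 1.05). The additive model was fitted with edgeR 4.0.16 in R 4.3.3 (quasi-likelihood, 1 residual degree of freedom, Benjamini-Hochberg over all kept genes, threshold 0.05), so genes on which BPA and DMBA act together are tested too strictly. DESeq2 1.42.0 was an alternative. Ratios of 2 libraries used a prior count of 2 and an exact 95% Clopper-Pearson interval of the counts, with no p-value. Intervals and floors cover counting error only. The methods were tested on simulated data. No 2 libraries held identical counts (chi-square per degree of freedom 12.1 to 71.7).

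Levels per kilobase used union exon lengths of GENCODE M21 (GRCm38), which is not the build of the counts, and promoter sequences are RefSeq's. The members and lists were chosen with earlier results of these data known. Every Hox gene entered the counts and medians; single values of some genes are not reported here. Of the other lists, the rule named members past the additive test, at most 6 by size of change, and always Meis1, Ezh2, Bmi1, Cbx7 and Rarb. Alternatives tried were other tests, scalings, filters, depths, thresholds, libraries left out and removal of the length trend.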

Additional observations from a re-analysis of the deposited data

Results flagged for a closer look

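For 2 Hox genes the response to an agent pointed in opposite directions depending on whether the other agent had been given, with counting intervals that excluded equality on both sides. With 1 library per condition this difference was not tested. The share of all genes that met the same rule was not counted, so no background stands beside these 2 genes. The sign was the same in both comparisons of DMBA for 72.8% of all genes and in both of BPA for 47.4%. For Hoxa3 the log2 ratio of DMBA against control was −0.54 and that of BPA+DMBA against BPA 0.68. For Hoxc10 the log2 ratio of DMBA against control was −0.51 and that of BPA+DMBA against BPA 0.75, while BPA against control gave −0.52 and BPA+DMBA against DMBA 0.74. The ratios of DMBA against control and BPA against control share the control library, and the other 2 share BPA+DMBA.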

How the results depend on the processing

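No Hox gene was called for DMBA except in the edgeR likelihood ratio test and in the fit with DMBA as the single term on all 4 libraries. The likelihood ratio test called 2, Hoxb2 and Hoxb6, beside 2509 of all 13638 genes. The single-term fit called 1, Hoxb2 (adjusted p = 0.0454 by edgeR), beside 2610 of all 13638 genes. Fits that left out 1 library in turn had DMBA or BPA as their single term and 1 arm of 1 library, which is assumed to vary like the other arm. They gave 0 for DMBA and 0 for BPA each time, and DESeq2 gave 0 for both. Over the edgeR and DESeq2 alternatives the adjusted p of Hoxb2 for DMBA ran from 0.0422 to 0.543. That of Hoxb6 ran from 0.0292 to 0.678. Of 247 estimates under the alternatives for DMBA, 3 of them called, 24 (12 genes) changed sign, and of 247 for BPA, none of them called, 22 (15 genes) did. No called estimate changed sign.

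With a threshold of 1.5-fold, 1 Hox gene was called in DMBA against control, 5 in BPA+DMBA against BPA, 4 in BPA+DMBA against DMBA and 3 in BPA+DMBA against control. Without the filter on low counts these were 2 in BPA+DMBA against DMBA (Hoxa2 and Hoxa6) and 3 in BPA+DMBA against control. The shares of all genes under these settings are not given here, so these counts cannot be set against a background. Per kilobase, the Hoxb share was 54.1%, 60.7%, 65.4% and 55.6% in control, BPA, DMBA and BPA+DMBA, and the Hoxc share 32.9%, 29.2%, 24.5% and 30.6%. With total counts as scaling the summed Hox level in DMBA was 107.7 CPM, and each cluster sum kept its side of control there and under DESeq2 size factors, which were added after seeing the data. The departure named the same 7 genes with total counts and with a prior count of 0.5.

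Over all genes, the 1962 calls for DMBA became 675 with DESeq2, 1244 with libraries thinned to the smallest and 1014 without the length trend. With DMBA as the single term there were 2610, which became 969 without the control library and 1439 without the BPA library. With total counts 889 were higher and 431 lower, beside 909 and 1053. Of 22 list genes called for DMBA, 8 stayed called with DESeq2, 11 with total counts and 8 of 21 without the length trend, none changed sign, and Bcl11b, Crabp1, Crabp2, Aldh1a1 and Aldh1a3 were called in all 12 alternatives. The cause of these differences was not tested. No paired analysis was possible because each group is 1 library. Of 21 measured genes, a 2-fold change was not excluded for 12 with DMBA and 9 with BPA. The intervals of the additive fit also hold the departure from additivity, and the part of depth in them was not tested.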
